A study of Mus musculus with 2 samples.

Results

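Malat1-rich RPE cells were retinal pigment epithelium (RPE) droplets in which the non-coding RNA Malat1 took at least 5% of all molecules counted, a level of 50000 CPM. A UMI is the tag that marks 1 captured RNA molecule, and CPM is the UMI count of a gene divided by all UMIs of the cell or group and multiplied by 1e6. A droplet was counted as an RPE cell when it held at least 10 Rpe65 UMIs and at least 1000 Rpe65 CPM, and a Malat1-rich cell also had to lie under 1000 CPM of Serpina3n. The control library held 153 such cells among 1500 RPE cells (10.2%, 95% Clopper-Pearson interval 8.71 to 11.8), and the Dox library held 193 among 1588 (12.2%, 10.6 to 13.9). Together these were 346 of 3088 RPE cells (11.2%) and 346 of the 35627 droplets kept from the whole series. All members were chosen by their Malat1, Rpe65 and Serpina3n counts, so contrasts between them and the remaining RPE cells describe the choice and were not tested.

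The tissue came from male C57BL/6J mice aged 3 months. Control mice received 1 µl of PBS under the retina, and Dox mice received 1 µl of doxorubicin at 100 ng/µl by the same route. At 7 days the RPE, choroid and sclera of 10 eyes from 5 mice per condition were pooled, dissociated with papain, depleted of dead cells and made into 1 droplet library of the 5′ type. The control library held 20381 barcodes with 117731270 UMIs and the Dox library 15649 barcodes with 103997248 UMIs. Each condition was 1 pooled library, so the condition and the library cannot be told apart, no test between conditions was possible, and every interval below covers counting error only. The libraries shared 441 barcodes, and 0 of them belonged to a Malat1-rich RPE cell in both.

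The RPE is the pigmented cell layer that supports the photoreceptors, and it regenerates the visual chromophore through the retinoid cycle, in which Rpe65 is the isomerase. Malat1 is a long non-coding RNA retained in the nucleus, where it gathers at nuclear speckles, the bodies that store splicing factors. In droplet data the balance between nuclear RNAs such as Malat1 and cytoplasmic messenger RNAs differs from droplet to droplet. Doxorubicin damages DNA and is used to bring cells into senescence.

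The limit of 50000 CPM did not lie in a gap, and RPE cells were found on both sides of it. In the control library 15 RPE cells lay within 5000 CPM below the limit and 7 members within 5000 CPM above it, and in the Dox library 18 and 9 did. The highest cell left outside had 49563 CPM in each library, and the lowest cell taken in had 50188 CPM in the control and 50032 CPM in the Dox library. The median Malat1 share of a member was 13.3% of its UMIs in the control and 15.4% in the Dox library, with a highest of 39.2% and 40.2%. In the remaining RPE cells the medians were 0.886% and 0.741%. Of the 153 control members, 101 lay above 100000 CPM, as did 140 of the 193 Dox members.

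**Figure D1:**
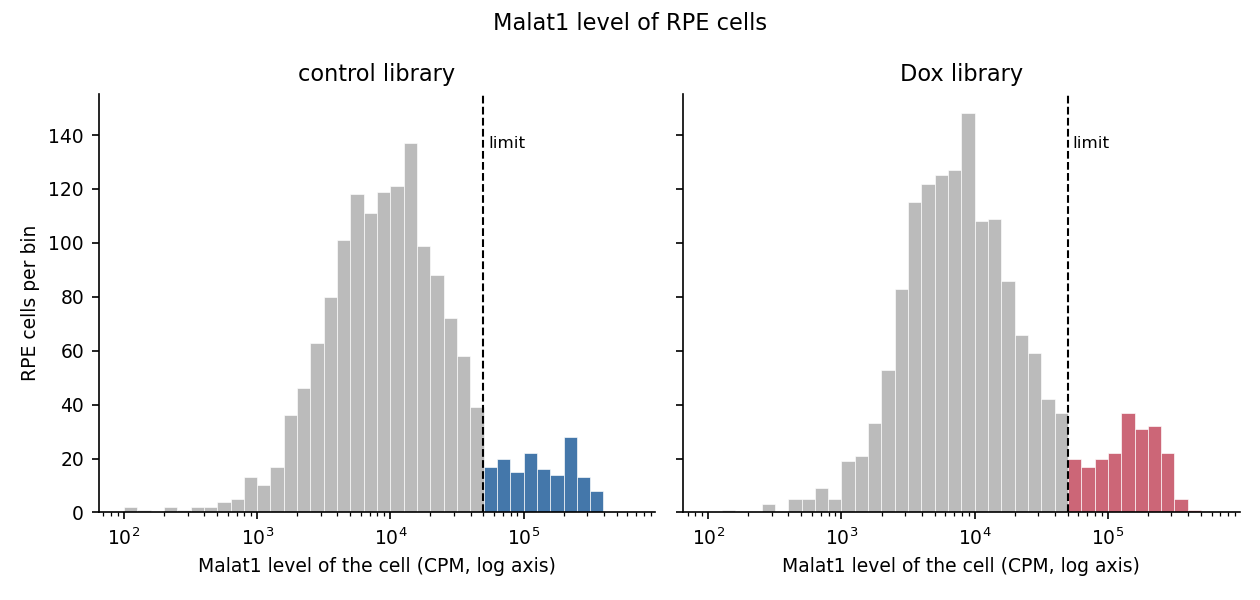
Number of RPE cells (y axis) by the Malat1 level of the cell in CPM (x axis, log scale) in the control and the Dox library, with the limit of 50000 CPM as a dashed line. The cells right of the line are the 153 members in the control library. In the Dox library they are the 193 members and 15 cells past the Serpina3n limit, which are not members. Of the members, 7 and 9 lie within 5000 CPM of the limit. Some bins past 100000 CPM hold more cells again in both libraries.

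Malat1-rich RPE cells were shallow droplets. They held a median of 4117 UMIs in the control library (lowest 922, highest 16602) and 4892 in the Dox library (lowest 1093, highest 18669), against 17644 and 20350 in the remaining RPE cells. The median number of detected genes was 1754 and 2023, against 3974 and 4219.5. Malat1 itself was nevertheless higher in absolute number, at 641 UMIs per control member and 821 per Dox member against 191 and 186 in the remaining RPE cells. Leaving Malat1 out, a member held on average 4237 UMIs in the control and 4950 in the Dox library, against 18317 and 20821.

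Because depth differed between the groups, a second comparison was added after the data had been seen. It set the members against the remaining RPE cells of at most 8000 UMIs, 217 cells in each library, with medians of 5578 UMIs in the control and 5394 in the Dox library. These shallow RPE cells had a median Malat1 share of 1.34% and 0.969%. Both comparisons are given below for the groups of genes other than cell type markers, and for some single genes.

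**Figure D2:**
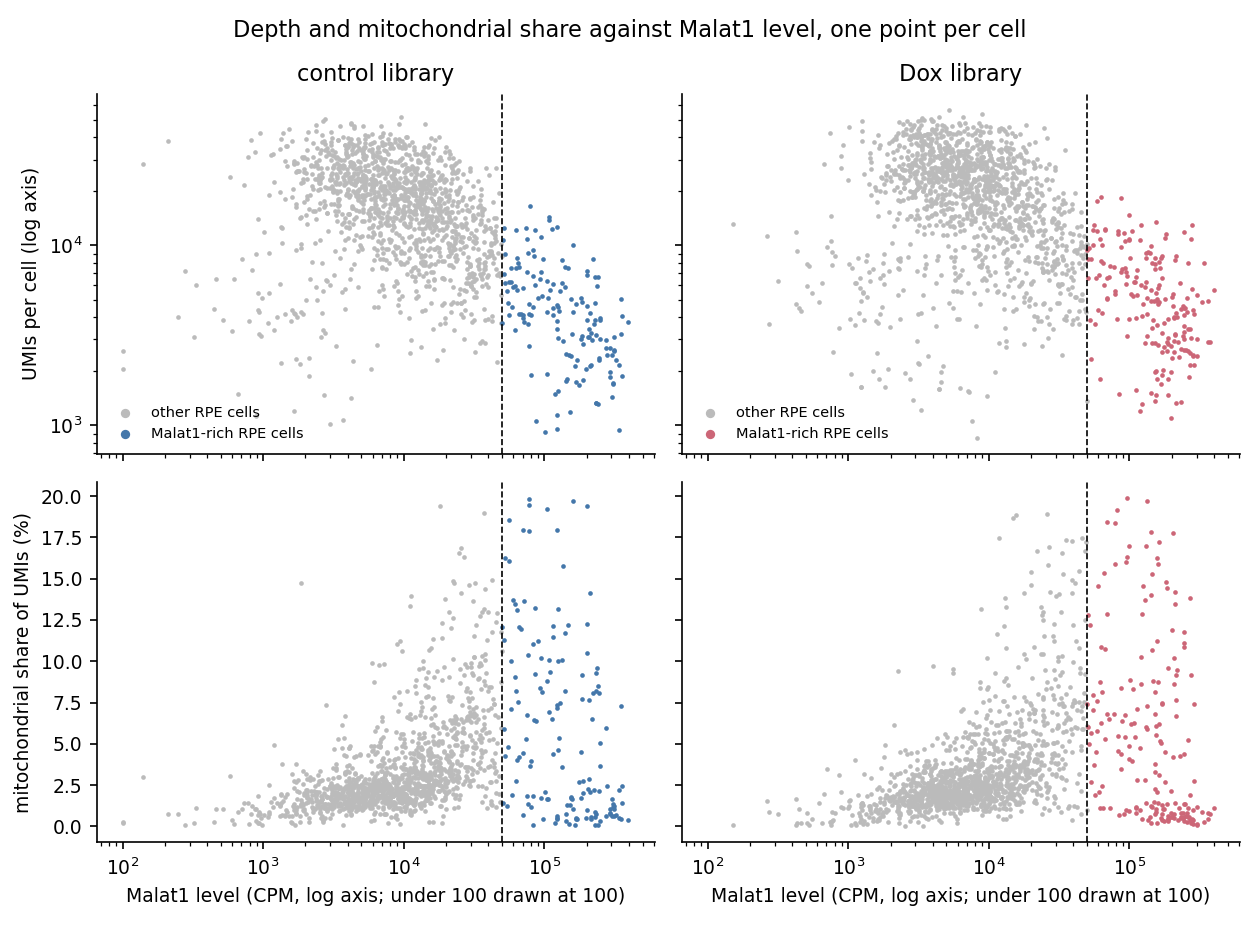
Total UMIs (upper panels, log axis) and share of mitochondrial UMIs in percent (lower panels) against the Malat1 level in CPM (x axis, log scale), 1 point per RPE cell, control and Dox libraries. UMIs are lower at higher Malat1 (median 3136 and 4135.5 above 100000 CPM), while the mitochondrial share is highest in the middle of the range and low again at the right end (median 2.22% and 2.12%).

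The RPE label was checked against 12 RPE markers other than Rpe65, which were present in members but at a lower summed level than in the remaining RPE cells. Rpe65, on which the cells were selected, stood at 5081 CPM in control members and 5085 CPM in the remaining control RPE cells, and at 4713 and 5059 CPM in the Dox library. In absolute number the members held 24.8 Rpe65 UMIs per cell in the control and 27.2 in the Dox library, against 94.1 and 106. The summed level of 12 other RPE markers was 32342 CPM in control members and 31982 CPM in Dox members, against 108213 and 110587 CPM in the remaining RPE cells. Best1, a chloride channel of the RPE, was at 0 UMIs in control members and at 1 UMI in Dox members, and was as sparse in the remaining RPE cells, at 0.521 and 0.690 CPM. Mitf, the transcription factor that directs pigment cell development, was higher in members, at 314 against 96.4 CPM in the control and 326 against 87.2 CPM in the Dox library. Otx2, another RPE transcription factor, had smaller ratios (610 against 388 CPM and 627 against 441 CPM).

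Markers of other cell types were counted beside these values. Lymphocyte markers were near 0 in members (8.04 CPM summed over 12 genes in the control and 4.49 CPM in the Dox library), with 8 of the 12 at 0 in each library, among them Nkg7, Trbc2 and Gzma. Rod photoreceptor markers summed to 273 and 268 CPM over 16 genes, led by the widely used Gnb1, with Gnat1 and Nrl among 12 genes at 0 in the control and 11 in the Dox library. Fibroblast markers summed to 3210 CPM in control members and at 2273 CPM in Dox members, led by Dcn (1615 and 937 CPM), against 1553 and 888 CPM in the remaining RPE cells. Melanocyte markers summed to 1286 and 482 CPM, led by Mlana (587 and 161 CPM), against 528 and 283 CPM in the remaining RPE cells, and macrophage markers to 772 and 244 CPM, led by Lyz2 in the control and Csf1r in the Dox library, against 348 and 169 CPM. Smooth muscle markers summed to 636 and 847 CPM over 10 genes, led by Acta2 (180 and 311 CPM), against 526 and 335 CPM. Endothelial markers summed to 142 and 268 CPM over 10 genes, against 78.0 and 50.1 CPM, led by Emcn in the control (105 CPM) and Plvap in the Dox library (104 CPM). Lymphocyte droplets, which should hold no transcripts of fibroblasts, melanocytes or vessel cells, carried 5907 and 4343 CPM of fibroblast, 1275 and 248 CPM of melanocyte, 1390 and 1337 CPM of smooth muscle and 228 and 264 CPM of endothelial markers, so the fibroblast sum of the members lay below that of these droplets in both libraries, the melanocyte sum about level with it in the control and above it in the Dox library. The part of free RNA in these sums was not tested. In the shallow RPE cells the fibroblast sum was 3209 CPM in the control and 3108 CPM in the Dox library, close to or above that of the members.

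Across all genes the CPM profile of members differed widely from that of the remaining RPE cells. In the control library 1261 of 3784 genes were at least 2-fold higher in members (33.3%) and 522 at least 2-fold lower (13.8%), with a median log2 ratio over all genes of 0.33. In the Dox library 1396 of 3865 genes were higher (36.1%) and 614 lower (15.9%), with a median of 0.43. Of 3558 genes measured in both libraries, 1061 were higher in both, 434 were lower in both and 0 were past 2-fold in opposite directions. In UMIs per cell, by contrast, few genes exceeded the deeper cells: 355 of 3784 (9.38%) in the control and 533 of 3865 (13.8%) in the Dox library. Against the shallow RPE cells 635 of 3791 genes were 2-fold higher (16.8%) and 334 lower (8.81%) in the control library, and 767 of 3887 (19.7%) and 429 (11.0%) in the Dox library, with medians of 0.07 and 0.05.

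These counts depend on the minimum of 50 CPM in either group, since a gene that reached it in members alone had to be higher there. Of the 3784 genes in the control library 1258 reached it only in members, 952 of them among the 1261 higher ones, and 435 only in the remaining cells, 195 of them among the 522 lower ones. In the Dox library 1375 of 3865 reached it only in members, with 1068 of the 1396 higher genes, and 476 only in the remaining cells, with 247 of the 614 lower ones. With the minimum set on both groups pooled, a choice made after seeing the data in which the remaining cells hold most of the UMIs, 331 of 2545 genes were higher and 519 lower in the control and 363 of 2523 higher and 607 lower in the Dox library, and the medians were -0.30 and -0.35. The balance of higher and lower genes therefore turned with the minimum, and no direction is given for the profile as a whole. Against the shallow cells the pooled minimum gave 356 higher and 292 lower of 3093 genes in the control and 513 and 371 of 3243 in the Dox library. The counts of gene groups that follow are descriptions read beside both sets of values.

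The split of calls also depended on the scale: of the genes past 2-fold, 70.7% were higher in the control and 69.5% in the Dox library, and this was 50.7% and 46.7% once the all-gene median was set to 0, 81.0% and 80.0% with Malat1 left out of the total and 84.7% and 82.8% with Malat1 and mitochondrial genes left out of the total. Leaving out Malat1 moved the median of all genes to 0.61 and 0.75, and leaving out mitochondrial genes too moved it to 0.75 and 0.84. The medians of nuclear non-coding, speckle, long RPE, mitochondrial, immediate early and acute-phase genes lay above 0 and those of respiratory chain, small spliceosome, ribosomal and retinoid genes below 0 under all 3 of these scalings.

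**Figure D3:**
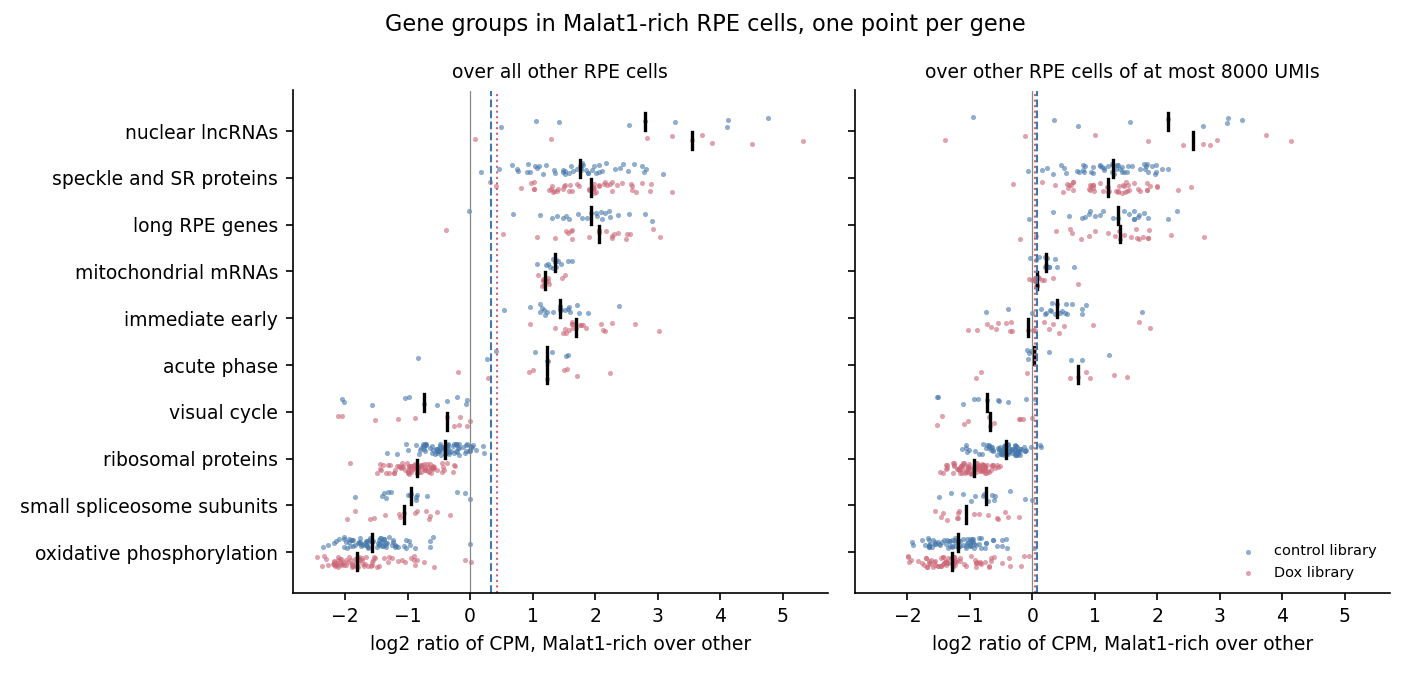
Log2 ratio of CPM of Malat1-rich over other RPE cells (x axis) for the genes of each group (vertical axis, 1 point per gene, black bars at the group medians, dashed and dotted lines at the median of all genes), against all other RPE cells and against those of at most 8000 UMIs, control and Dox libraries. The medians of nuclear non-coding RNAs, speckle genes and long RPE genes lie above 1 in both comparisons and those of respiratory chain genes below -1, while the medians of mitochondrial and immediate early transcripts lie between -0.07 and 0.40 against the shallow cells.

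Nuclear long non-coding RNAs other than Malat1 had large ratios. Of 22 listed genes in the files 9 passed the minimum in each library, 6 of them only through their level in members, so the count of 8 past 2-fold higher and 0 lower, and the median log2 ratio of 2.80 in the control and 3.55 in the Dox library, are in part set by the minimum and do not stand for the list. Under the pooled minimum 3 genes were left in each library, 2 of them past 2-fold higher. Against the shallow RPE cells the medians were 2.18 and 2.56. Malat1 itself (chr19:5795690-5802672, minus strand, all coordinates on GRCm38/mm10 with GENCODE M21) stood at 131396 CPM in control members and at 142274 CPM in Dox members, against 10318 and 8876 CPM in the remaining RPE cells, which is the contrast the cells were selected on.

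Gm26917 (chr17:39843013-39846341, plus strand, annotated as a lincRNA) had the largest ratios among those measured. It stood at 3788 CPM in control members against 140 CPM in the remaining RPE cells, a log2 ratio of 4.76 (95% counting interval 4.69 to 4.83), and at 4583 against 114 CPM in the Dox library, a ratio of 5.33 (5.27 to 5.39). A member held 18.5 Gm26917 UMIs in the control and 26.5 in the Dox library, against 2.58 and 2.39 in the deeper remaining RPE cells. The neighbouring annotations Gm42418 and AY036118 overlap each other on opposite strands within 1 kb of Gm26917, so the split of reads among these 3 is uncertain. Gm42418 had far smaller log2 ratios, at 0.49 in the control and 0.07 in the Dox library. Only against the shallow RPE cells did it lie on the other side, at -0.94 and -1.39.

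Kcnq1ot1 (chr7:143203458-143296549, minus strand), the imprinted transcript that runs antisense to the potassium channel gene Kcnq1, is annotated as a single transcript of 93.1 kb. It stood at 509 CPM in control members and 29.4 CPM in the remaining RPE cells, and at 444 and 30.3 CPM in the Dox library, with log2 ratios of 4.11 (3.93 to 4.29) and 3.88 (3.71 to 4.04). Neat1 (chr19:5824708-5845478, minus strand), the scaffold of nuclear paraspeckles and a neighbour of Malat1, stood at 303 against 31.2 CPM and at 319 against 24.2 CPM, ratios of 3.28 and 3.72. Lncpint, a non-coding RNA induced by p53, stood at 123 against 7.06 CPM and at 137 against 6.00 CPM. All 3 were higher in members also in UMIs per cell, for Kcnq1ot1 with 2.48 and 2.56 against 0.545 and 0.636. Against the shallow RPE cells the ratios of Kcnq1ot1 were 3.12 and 2.84, and those of Neat1 2.18 and 2.40.

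The host genes of small nucleolar RNAs, spliced non-coding transcripts that leave the nucleus, differed less. Of 5 measured in the control library 3 were past 2-fold higher, and of 4 in the Dox library 2 were, with medians of 1.11 and 0.99, and all of those past 2-fold had reached the minimum only in members. Against the shallow cells the medians were 0.40 and -0.11. Gas5, the most abundant of them in members, stood at 346 against 283 CPM in the control and at 245 against 253 CPM in the Dox library.

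Genes for the SR proteins and other components of nuclear speckles were mostly on the higher side. In the control library 40 of 48 were at least 2-fold higher in members and in the Dox library 44 of 48, with 0 lower in either and medians of 1.77 and 1.93. Of these, 16 and 17 had reached the minimum only in members, and under the pooled minimum 27 of 34 and 33 of 35 were higher, with medians of 1.68 and 1.91. Against the shallow cells 32 of 48 in the control and 29 in the Dox library were past 2-fold higher, with medians of 1.28 and 1.21. Srrm2, a scaffold protein of the speckle, stood at 1278 against 323 CPM in the control (log2 ratio 1.98, 1.89 to 2.08) and at 1373 against 309 CPM in the Dox library (2.15, 2.07 to 2.23). Son, the second speckle scaffold, had ratios of 1.77 and 1.91, and Ddx5, an RNA helicase, 1.21 and 1.03. The 2-fold call of Ddx5 held in 18 of 21 alternative settings in the control and in 12 of 21 in the Dox library. Pnisr, an SR-related protein, and Snrnp70, a core protein of the U1 particle, had ratios of 2.82 and 2.45 in the control and 2.88 and 2.66 in the Dox library. In UMIs per cell Srrm2 was at about the same number in members (6.24 and 7.92) as in the remaining RPE cells (5.98 and 6.49), although the latter held 18508 and 21008 UMIs per cell against 4878 and 5771.

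Splicing genes did not share 1 direction. The small Sm, LSm and related core proteins of the spliceosome were lower in members, with 6 of 16 past 2-fold lower in the control and 8 of 15 in the Dox library, 0 higher, and medians of -0.95 and -1.07. Of the lower ones 2 and 7 had reached the minimum only in the remaining cells. Against the shallow cells the medians were -0.74 and -1.05. Snrpd2, an Sm ring protein, stood at 65.7 against 159 CPM in the control and at 58.4 against 151 CPM in the Dox library.

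The 12 genes with the largest higher ratios in both libraries were Malat1, Gm26917, Kcnq1ot1, Neat1 and Lncpint and 7 more, among them Rnpc3, a protein of the minor spliceosome, and Prpf39, a factor of the U1 particle. Rnpc3 stood at 263 against 24.7 CPM in the control and 278 against 23.6 CPM in the Dox library, with log2 ratios of 3.41 and 3.56. Tet2, which oxidises methylated cytosine in DNA, had ratios of 3.29 and 3.36, Cspp1, a centrosome protein, 3.29 and 3.50, and Dnah7b, a dynein heavy chain, 3.65 and 3.33. Prpf39 had 3.12 and 3.42, Eml5, a microtubule protein, 3.14 and 3.30, and the lincRNA Gm39469 3.17 and 3.33. Apart from Rnpc3 these genes were sparse, at 54.9 to 134 CPM in members, and all 7 reached the minimum in members alone. Relative to the shallow cells the ratios of all 7 lay between 1.83 (Eml5 in the Dox library) and 2.97 (Tet2 in the control).

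RPE genes with very long genomic spans were also higher in members. In each library 21 of 23 were at least 2-fold higher and 0 lower, with medians of 1.94 and 2.06, and 6 and 7 of the higher ones had reached the minimum only in members. Under the pooled minimum 17 of 19 and 15 of 17 were higher, with medians of 1.87 and 2.06. Against the shallow cells 15 of 23 in the control and 16 in the Dox library were past 2-fold higher, with medians of 1.38 and 1.40. Col4a4 and Col4a3, collagen chains of the basement membrane, had log2 ratios of 2.80 and 2.54 in the control and 2.93 and 2.55 in the Dox library. Col4a4 stood at 847 against 122 CPM and at 1015 against 133 CPM, and it was higher in UMIs per cell too, at 4.13 and 5.86 against 2.26 and 2.80. Trpm3, a cation channel whose intron holds the RPE microRNA miR-204, stood at 3974 against 1143 CPM in the control and 3521 against 1140 CPM in the Dox library, with 19.4 and 20.3 UMIs per cell against 21.2 and 23.95. Macf1, a linker of actin and microtubules, had ratios of 2.11 and 2.30.

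The retinoid cycle and the abundant secreted proteins of the RPE lay on the other side. Of 11 retinoid genes besides Rpe65, 4 were at least 2-fold lower in members in each library and 0 higher, with medians of -0.73 and -0.37, and of -0.72 and -0.67 against the shallow cells. Ttr, which carries retinol and thyroid hormone, stood at 17424 against 72062 CPM in the control and at 17190 against 74524 CPM in the Dox library, a log2 ratio of -2.05 and -2.12. Rdh5, which oxidises 11-cis-retinol, had -1.58 and -1.52. Rlbp1, the carrier of 11-cis-retinoids, had -1.05 and -0.89. Over 21 alternative settings its control ratio ran from -1.38 to -0.58 and kept its 2-fold call in 16. Lrat, which makes the retinyl esters that Rpe65 uses, stood at 1237 against 1279 CPM in the control and at 1059 against 1184 CPM in the Dox library, so the genes of the cycle did not share 1 ratio. Cst3, the protease inhibitor cystatin C, stood at 7963 against 39586 CPM and 9074 against 42333 CPM, and Ptgds, a prostaglandin synthase and lipid carrier, had ratios of -2.04 and -2.13. Mt3, a metal-binding metallothionein, was among the genes with the largest lower ratios, at 711 against 4364 CPM and 591 against 3923 CPM, and had ratios of -2.26 and -2.51 against the shallow cells. Rd3l, a relative of the retinal degeneration gene Rd3, had -2.38 and -2.45, and Nrn1l and Fcor, at 10.7 CPM or less in members, had -3.17 and -2.88 in the control and -3.03 and -3.25 in the Dox library.

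Other RPE genes were mixed. Over all genes 33.3% were 2-fold higher and 13.8% lower in the control, and 36.1% and 15.9% in the Dox library. Of 28 further RPE transcription factors, transporters and secreted proteins, 4 were 2-fold higher and 6 lower in the control. In the Dox library 5 were higher and 4 lower, and the medians were 0.29 in the control and 0.37 in the Dox library. Melanin and melanosome genes had medians of 0.54 over 13 genes in the control and 0.19 over 10 in the Dox library, with 6 and 1 past 2-fold higher and 0 lower. Set against the shallow cells, the RPE genes had medians of -0.03 and 0.14, and the pigment genes 0.25 and 0.21 with 0 of 13 past 2-fold higher in the control and 1 of 10 in the Dox library. With the all-gene median set to 0, the RPE genes had medians of -0.04 and -0.06 and the pigment genes of 0.21 and -0.24, so no direction is given for either group.

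Nuclear genes of the respiratory chain were lower almost as a block. In the control library 66 of 73 genes for subunits of complexes I to V were at least 2-fold lower in members and in the Dox library 65 of 74, with 0 higher and medians of -1.57 and -1.81. Relative to the shallow cells 48 and 53 of 74 were past 2-fold lower, with medians of -1.18 and -1.28. Ndufa4, a subunit of cytochrome oxidase, stood at 355 against 1720 CPM in the control (log2 ratio -2.27, -2.46 to -2.10) and at 318 against 1737 CPM in the Dox library (-2.45, -2.61 to -2.30). Cox8a, another subunit of the same complex, had ratios of -1.79 and -2.09, and Atp5k, a subunit of ATP synthase, -2.19 and -2.33.

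The 13 messenger RNAs of the mitochondrial genome, which code for subunits of the same complexes, went the opposite way. All 13 were at least 2-fold higher in members in each library, with medians of 1.36 and 1.20. mt-Co1, the catalytic subunit of cytochrome oxidase, stood at 12548 against 5146 CPM in the control and at 12504 against 5218 CPM in the Dox library. Relative to the shallow cells, however, 0 of 13 were past 2-fold, with medians of 0.23 and 0.08, and mt-Co1 had ratios of 0.23 and 0.19. Nuclear and mitochondrial genes of the respiratory chain thus lay apart in members in both comparisons, with the lower level of the nuclear genes present in each.

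Cytosolic ribosomal proteins had medians below 0 in both libraries, but few passed 2-fold in the control. Of 79 genes 0 were 2-fold higher, 3 were lower in the control and 22 in the Dox library, beside 13.8% and 15.9% of all genes, with medians of -0.40 and -0.86, and of -0.43 and -0.93 against the shallow cells. The control median was -0.21 with Malat1 left out of the total and -0.14 with mitochondrial genes left out too. Rpl13 stood at 1044 against 1103 CPM in the control and at 614 against 931 CPM in the Dox library.

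Immediate early genes, which tissue dissociation is known to induce, were past 2-fold higher in most cases against all remaining RPE cells and in few against the shallow ones. Of 21 genes 19 were at least 2-fold higher in the control and 20 in the Dox library, with medians of 1.44 and 1.70. Relative to the shallow cells 1 of 21 was higher in the control and 2 were higher and 1 lower in the Dox library, with medians of 0.40 and -0.07. Fos stood at 2921 against 1278 CPM and at 3459 against 1026 CPM, and Jun at 1667 against 611 CPM and at 2671 against 553 CPM, whereas their ratios against the shallow cells were 0.47 and 0.42 for Fos and 0.80 and 0.97 for Jun. Acute-phase genes other than Serpina3n had medians of 1.22 and 1.23 with 6 of 9 past 2-fold higher in each library, and of 0.03 and 0.74 against the shallow cells. Osmr, the oncostatin M receptor, was higher in both comparisons, with ratios of 1.53 and 1.51 and of 1.23 and 1.51. Heat shock proteins had medians of 0.24 and 0.32 over 14 genes, p53 targets 0.75 over 8 and 0.07 over 13, and interferon-induced genes 0.74 over 11 and 0.11 over 14. Relative to the shallow cells these medians were -0.07 and -0.00 for heat shock proteins, -0.06 and 0.02 for p53 targets and -0.10 and -0.73 for interferon-induced genes. Heat shock genes in both libraries and p53 and interferon genes in the Dox library also lay below 0 once the all-gene median was set to 0 (-0.10 and -0.10, -0.36 and -0.32). Under the pooled minimum the medians were -0.38 and -0.17 for heat shock proteins, -0.73 and -0.55 for p53 targets and 0.00 and -0.82 for interferon-induced genes, so no direction is given for these 3 groups. Immediate early genes had 1.44 and 1.73 under it and acute-phase genes 1.13 and 1.12.

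The ratio of a gene was related to the length of its transcript, a property that the choice of cells did not use. Over 3768 annotated genes in the control library, Malat1 and mitochondrial genes left out, the longest transcripts of 3 groups of about equal size (median 6.46 kb) had a median log2 ratio of 1.32, and 65.9% of them were at least 2-fold higher in members. The shortest group (median 1.52 kb) had a median of -0.70, and 34.0% were at least 2-fold lower. In the Dox library the medians were 1.43 and -0.79, with 70.2% higher and 38.4% lower. Across genes Spearman's rho was 0.69 and 0.71, and 0.66 and 0.67 against the shallow cells. The minimum level entered these values too. With it set on both groups pooled, the longest group had medians of 0.46 and 0.55 with 26.2% and 31.0% higher, the shortest -0.90 and -1.04 with 43.2% and 52.0% lower, and rho was 0.62 and 0.67. These points are genes of the same libraries and not independent replicates. Among the genes named above, Macf1 (longest annotated transcript 23.5 kb), Trpm3 (12.3 kb) and Col4a4 (10.1 kb) lay at the long end, and Mt3 (0.536 kb), Atp5k (0.563 kb) and Cst3 (0.860 kb) at the short end. Lncpint (1.68 kb) and Gm26917 (3.33 kb) had large ratios without being long. Whether reads from introns were counted is not given in the sources used here.

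**Figure D4:**
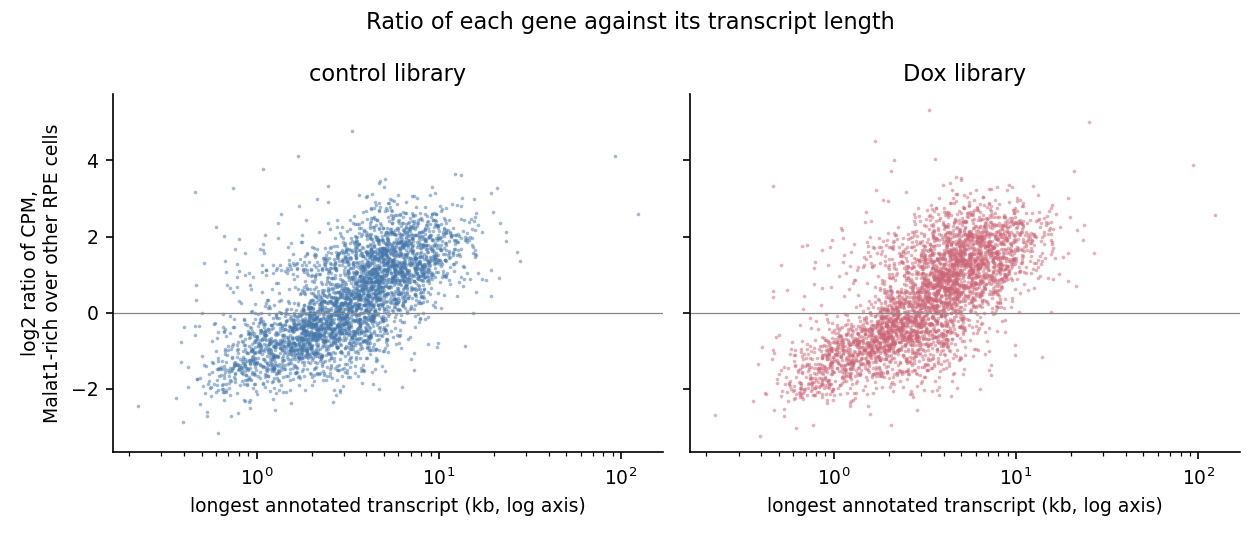
Log2 ratio of CPM of Malat1-rich over other RPE cells (y axis) against the length of the longest annotated transcript in kb (x axis, log scale), 1 point per gene, control and Dox libraries. Longer transcripts have higher ratios, with a Spearman's rho across genes of 0.69 and 0.71.

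Along the Malat1 scale speckle genes, respiratory chain genes and Gm26917 followed a gradient that reached below the limit, while immediate early and nuclear non-coding genes in both libraries and ribosomal genes in the control did not. Speckle genes summed to 3984 CPM in control RPE cells of under 5000 Malat1 CPM, to 7777 CPM in those of 25000 to 50000, to 11410 CPM in those of 50000 to 100000, and to 18923 CPM in those above 100000. The Dox library gave 3981, 7854, 11667 and 19318 CPM. Respiratory chain genes went from 44791 to 27206, 17624 and 9458 CPM over the same 4 ranges in the control and from 45710 to 26604, 16252 and 8671 CPM in the Dox library. Gm26917 went from 38.2 to 640, 1655 and 5652 CPM and from 37.3 to 616, 1727 and 6462 CPM. Ribosomal protein genes stood at 55708, 48682, 56496 and 24670 CPM over these ranges in the control library and at 50758, 39061, 37052 and 18227 CPM in the Dox library. Immediate early genes were highest at 50000 to 100000 CPM, at 20779 CPM in the control and 17259 CPM in the Dox library, against 11107 and 16359 CPM above 100000. The summed nuclear non-coding RNAs other than Malat1, in which Gm42418 was the most abundant gene, were highest just below the limit, at 25423 and 25126 CPM, against 24050 and 20887 CPM above 100000. The median number of UMIs went down over the same ranges, from 22204 to 9341, 6104 and 3136 in the control library, so Malat1 level and depth moved together. Levels in these bins are shares of all UMIs, and the share that Malat1 itself takes lowers that of every other gene in the upper bins.

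The mitochondrial share did not follow the same line. Its median was 1.67% in the lowest Malat1 range of the control library, 5.95% at 25000 to 50000 CPM, 7.81% at 50000 to 100000 CPM and 2.22% above 100000 CPM. In the Dox library these values were 1.77%, 6.27%, 6.37% and 2.12%. Summed fibroblast, melanocyte, macrophage and other non-RPE markers had the same shape, at 3464, 6331, 9953 and 3166 CPM in the control and 2195, 3613, 5969 and 3352 CPM in the Dox library. The members just above the limit and those far above it thus differed in mitochondrial and non-RPE transcripts.

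Within the members the mitochondrial share spread over the whole allowed range. Its quartiles were 1.20% and 9.36% in the control library around a median of 4.28%, and 0.85% and 8.63% around 4.40% in the Dox library. Of the control members 33 lay under 1% mitochondrial UMIs (21.6%) and 36 between 10% and 20% (23.5%), and of the Dox members 53 (27.5%) and 40 (20.7%). In the remaining RPE cells 93 of 1347 lay under 1% (6.90%) and 47 above 10% (3.49%) in the control, and 100 of 1380 (7.25%) and 52 (3.77%) in the Dox library. Members under 1% had a median Malat1 share of 21.3% and 22.3%, and Gm26917 at 8713 and 10968 CPM. Members between 10% and 20% had a Malat1 share of 8.44% and 13.2%, and Gm26917 at 2071 and 2875 CPM. Rdh5 went the other way, at 1400 and 1475 CPM in the former and 3008 and 2599 CPM in the latter, as did the summed retinoid genes, at 22975 and 17974 CPM against 42237 and 32669 CPM.

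Across single members, Malat1 level went up with speckle and long RPE genes and down with UMIs, mitochondrial share and respiratory chain genes. Spearman's rho with Malat1 CPM was -0.52 for UMIs over the 153 control members and -0.44 over the 193 Dox members, and -0.42 and -0.41 for the mitochondrial share. Computed on the UMIs other than Malat1, rho was 0.84 and 0.75 for speckle genes, 0.79 and 0.73 for long RPE genes, and -0.58 and -0.46 for respiratory chain genes. On the same UMIs immediate early genes had -0.06 and 0.11, whereas Gm26917, taken as CPM of all UMIs, had 0.59 and 0.57. Cells of 1 library share that library, their depth enters every one of these values, and no p is given.

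The study's own comparison, Dox against control, was then made within the Malat1-rich RPE cells. A2m, Gas6, Sema3b, Id1 and Cdkn1a were past 2-fold higher in Dox members than in control members. Among pigment genes Pmel, Mlana and Tyrp1 were past 2-fold lower. Ctsd and the ribosomal protein genes had ratios above and below 0 without passing 2-fold, and several macrophage genes past 2-fold lower owed most of their UMIs to 1 cell. Of 3707 genes 25 were at least 2-fold higher in Dox members (0.674%) and 50 at least 2-fold lower (1.35%), with a median log2 ratio of 0.03. In the remaining RPE cells 12 of 2587 genes were higher (0.464%) and 9 lower (0.348%), with a median of -0.01. With these cells held under the same Serpina3n limit as the members, 1 of 2599 genes was higher and 8 were lower. The control members held 746337 UMIs in all, against 24929700 in the remaining control RPE cells, so their ratios carry wider intervals, and over 20 alternative settings the counts of higher and lower genes in members ran from 8 to 72 and from 26 to 139. Of the calls 33.3% were higher, a share that ran from 19.0% at a Malat1 limit of 30000 CPM to 61.4% at 100000 CPM and was 43.9% with Malat1 left out of the total, so the balance of higher and lower calls turned with the limit.

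One part of the rule bears on any contrast of these responses. Members had to lie under 1000 CPM of Serpina3n, whereas the remaining RPE cells did not, and 167 of the 1380 remaining Dox cells but 13 of the 1347 remaining control cells lay above that limit. Serpina3n, an acute-phase protease inhibitor, stood at 22.8 CPM in control members and at 131 CPM in Dox members, and at 73.1 and 1016 CPM in the remaining RPE cells. The Dox to control ratio of the remaining cells is therefore given as they stand and also with the same limit, which left 1334 control and 1213 Dox cells.

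A2m, a broad protease inhibitor, stood at 289 CPM in control members and at 771 CPM in Dox members, a log2 ratio of 1.41 (1.20 to 1.64). In the remaining RPE cells it stood at 218 and 636 CPM, a ratio of 1.54 (1.50 to 1.59), and under the same limit at 203 and 242 CPM, a ratio of 0.25 (0.20 to 0.31). The difference between the groups was thus -0.13 (-0.35 to 0.09, a normal approximation on log counts) as the rule drew them, 1.16 (0.94 to 1.38) with the limit on both and 0.25 (0.04 to 0.46) with the limit on neither. Over 21 alternative settings the ratio in members ran from 0.83 at a Malat1 limit of 100000 CPM to 1.81, and it was under 2-fold in 2. The order of members and remaining cells for A2m rested on where the limit was applied.

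Other genes named for their ratio in Dox over control members are given in the same way. Because they were chosen for that ratio, as A2m was, their differences from the remaining RPE cells are a description, and the members are the same cells with the limit on both as under the rule. Gas6, a ligand of the Mertk receptor that drives uptake of outer segments, stood at 109 CPM in control members and at 313 CPM in Dox members, a log2 ratio of 1.52 (1.18 to 1.90), against 0.85 in the remaining cells and 0.40 under the same limit. Its difference was 0.67 (0.32 to 1.03), 1.13 (0.77 to 1.48) with the limit on both and 1.10 (0.75 to 1.44) with the limit on neither, and over 21 alternative settings its ratio in members ran from 1.20 to 1.95. Sema3b, a secreted semaphorin, stood at 130 and 296 CPM, a ratio of 1.18 (0.86 to 1.53) against 0.25 and 0.10, with differences of 0.93, 1.08 and 1.33. Over the alternatives the ratio of Sema3b in members ran from 0.46, at a Malat1 limit of 100000 CPM, to 1.58, and it lost its 2-fold call in 5 of 21. Id1, an inhibitor of helix-loop-helix factors, stood at 87.1 and 195 CPM, a ratio of 1.15 (0.76 to 1.58) against 0.24 and 0.25, which was 0.57 at a limit of 30000 CPM and under 2-fold in 3 of 21 settings. Gm42047, a lincRNA, stood at 9.38 and 85.3 CPM from 7 and 95 UMIs, a ratio of 3.09 (2.09 to 4.54) against 2.36 and 1.56. Its difference of 0.73 (-0.46 to 1.92) had an interval that held 0, as it did with the limit on neither, and it was 1.53 (0.33 to 2.74) with the limit on both. Mfsd11, a membrane protein, had 1.65, from 16.1 and 52.1 CPM.

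Abundant genes gave the narrowest counting intervals, but the choice of cells moved the ratios of Ctsd, Trf and Pcolce past their intervals. Ctsd, the lysosomal protease cathepsin D, stood at 1300 CPM in control members and at 2493 CPM in Dox members, a ratio of 0.94 (0.83 to 1.05) against 0.39 in the remaining cells and 0.15 under the same limit, and it ran from 0.42 at a Malat1 limit of 100000 CPM to 1.58 with no limit on Serpina3n. Trf, transferrin, stood at 9068 and 13778 CPM, a ratio of 0.60 (0.56 to 0.64) against 0.16 and -0.36, but at a Malat1 limit of 100000 CPM its ratio in members was 0.024, and over all alternatives the highest was 0.90. Pcolce, an enhancer of procollagen processing, had 0.99 (0.81 to 1.18) against 0.64 and 0.09 and ran from 0.41 at 30000 CPM to 1.20. Ntrk2, the receptor of brain-derived neurotrophic factor, had 0.88 (0.48 to 1.31) against 0.24 and -0.04. It rested on 67 and 185 UMIs in members, and its range of 0.51 to 1.07 lay within its interval. Rdh5 had 0.17 (0.08 to 0.26) against 0.11 and 0.14. Malat1, Neat1, Kcnq1ot1 and Gm26917 had 0.11, 0.07, -0.20 and 0.27 between Dox and control members.

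Of the p53 targets, Cdkn1a and Gdf15 were past 2-fold higher among 10 measured in members, beside 25 of all 3707 genes (0.674%). Of the 10, 2 lay below 0, with a median of 0.53, beside 1721 of all 3707 genes below 0. In the remaining RPE cells 2 of 9 were past 2-fold higher with a median of 0.39, beside 12 of all 2587 genes (0.464%). Under the same limit 0 of 6 were past 2-fold higher, with a median of 0.13. Cdkn1a, the cell cycle inhibitor p21, stood at 84.4 CPM in control members and at 184 CPM in Dox members, a log2 ratio of 1.12 (0.71 to 1.56) against 1.18 in the remaining cells and 0.42 under the same limit. Over the alternatives its ratio in members ran from 0.59, at a Malat1 limit of 30000 CPM, to 1.71, and it lost its 2-fold call in 4 of 21. Lymphocyte droplets held 227 CPM of Cdkn1a in the control and 186 CPM in the Dox library, at or above the members' values. Their level was thus lower in the Dox library, unlike that of members. Expression by the lymphocytes themselves was not told apart from free RNA there. Gdf15, a stress cytokine, stood at 56.3 and 121 CPM, and 1 cell held 45.2% of its UMIs in control members. The ratio of Gdf15 ran from 0.30 with at least 3 Rpe65 UMIs to 2.06. Mdm2 and Ccng1, other p53 targets, had 0.77 (0.16 to 1.44) and 0.76 (0.17 to 1.40), and Bax had 0.17 (-0.45 to 0.82).

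Interferon-induced genes had a median of 0.00 over 13 genes in members, with 1 past 2-fold higher and 1 lower, beside 0.674% and 1.35% of all genes. The remaining RPE cells had a median of 0.73 over 10 genes with 5 past 2-fold higher, beside 0.464% of all genes. Under the same Serpina3n limit the median was -0.02 over 8 genes, with 0 past 2-fold higher. Ifi27, a mitochondrial protein induced by interferon, stood at 154 CPM in control members and at 268 CPM in Dox members, a ratio of 0.79 (0.48 to 1.12) against 1.07 and 0.97. Bst2, an antiviral membrane protein, stood at 121 CPM in both control and Dox members, and at 237 and 484 CPM in the remaining cells, a difference of -1.03 (-1.41 to -0.64) that was -0.82 (-1.21 to -0.44) with the limit on both. B2m, the light chain of MHC class I, had -0.38 (-0.66 to -0.10) in members against 0.20 and 0.05.

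Of the ribosomal protein genes 0 of 79 passed 2-fold in Dox over control members. All 79 lay below 0, with a median of -0.59, beside 1721 of all 3707 genes, and in the remaining RPE cells 76 of 79 lay below 0 with a median of -0.13, beside 1387 of all 2587 genes. Fibroblast and macrophage markers were lower in Dox members as well, with sums of 3210 and 2273 CPM and of 772 and 244 CPM. Melanocyte markers were lower too, whereas smooth muscle and endothelial markers had higher sums in Dox members, as given above. In members of 50000 to 100000 CPM of Malat1 the ribosomal genes summed to 56496 CPM in the control and 37052 CPM in the Dox library. The markers of all other cell types summed to 9953 and 5969 CPM there. In the 101 control and 140 Dox members above 100000 CPM the ribosomal genes summed to 24670 and 18227 CPM. There the markers of all other cell types summed to 3166 and 3352 CPM, so they were not lower in Dox members. The part of these markers in the ribosomal difference was not tested. Rpl13 stood at 1044 CPM in control members and at 614 CPM in Dox members, a log2 ratio of -0.77, and Rps24 at 1044 and 632 CPM. Lars2, the mitochondrial leucyl-tRNA synthetase, stood at 1594 and 810 CPM, a ratio of -0.98 (-1.10 to -0.85) against 0.02 in the remaining cells and 0.10 under the same Serpina3n limit, and it was -0.39 at a Malat1 limit of 100000 CPM.

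Most of the genes lower in Dox members were as high or higher in control lymphocyte droplets as in control members. Of the 50 genes, 38 stood in control members at or below their level in the control lymphocyte droplets. Of the 25 higher genes, 4 stood in Dox members at or below their level in the Dox lymphocyte droplets. The 2 counts come from different libraries and are not set against each other. In the lymphocyte droplets 22 of the 50 were lower past 2-fold too. The matching shares of all tested genes are not given, so these counts are a description of the called genes alone. Genes that lymphocytes make themselves were not set apart, so the counts do not measure free RNA. Of the same 50 genes, 22 were also past 2-fold lower in the remaining RPE cells and 49 lay below 0 there. These 22 include genes under the minimum of 50 CPM in those cells, where 9 of 2587 genes were called lower. The counts of 50 and 9 lower genes are therefore not over the same genes. The melanocyte gene Mlana stood at 587 and 161 CPM in control and Dox members and at 683 and 95.5 CPM in lymphocyte droplets. Pmel stood at 791 and 238 CPM against 880 and 149 CPM in lymphocyte droplets, and Tyrp1 at 519 and 192 CPM against 537 and 97.0 CPM. S100b and Ednrb, also used by melanocytes, had log2 ratios of -1.42 and -1.58, and of -2.08 and -2.18 in the remaining RPE cells. Selenop and Spp1 had -1.34 and -1.36, and -1.30 and -2.64 in the remaining RPE cells, and stood at 568 and 263 CPM in the control lymphocyte droplets. Among the pigment genes as a list 6 of 13 were past 2-fold lower, with a median of -0.80, beside 1.35% of all genes. Tyr, the rate-limiting enzyme of melanin synthesis, had 0.29 however, and Gpnmb, a melanosome protein, 0.35. The part of free RNA in these differences was not tested.

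Several macrophage genes lower in Dox members came from few cells. A single control cell held 64.4% of the members' Lyz2 UMIs, 88.5% of C1qb and 87.7% of Tyrobp. Without the cell with the most UMIs in each group, a removal chosen after the data had been seen, Lyz2 went from -2.57 to -1.18, C1qb from -2.77 to -0.06 and Tyrobp from -2.67 to 0.02. Ccl11, an eotaxin, stood at 127 CPM in control members and at 1.80 CPM in Dox members from 95 and 2 UMIs. The chemokine Ccl4, the protease Ctss and the receptor Ccrl2 had ratios of -3.17, -3.10 and -2.56, with 68.1%, 76.7% and 78.0% of the control UMIs in 1 cell. Without the top cells these ratios were -1.85, -1.38 and -0.76, the last no longer past 2-fold. Cited1, a transcriptional cofactor, had -1.93 and -1.99 without its top cells. On the higher side 1 Dox cell held 73.3% of the UMIs of Plvap, an endothelial gene, which went from 3.59 to 1.93 without it. Across the called genes, 24 of the 25 higher and 44 of the 50 lower ones stayed past 2-fold without their top cells.

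**Figure D5:**
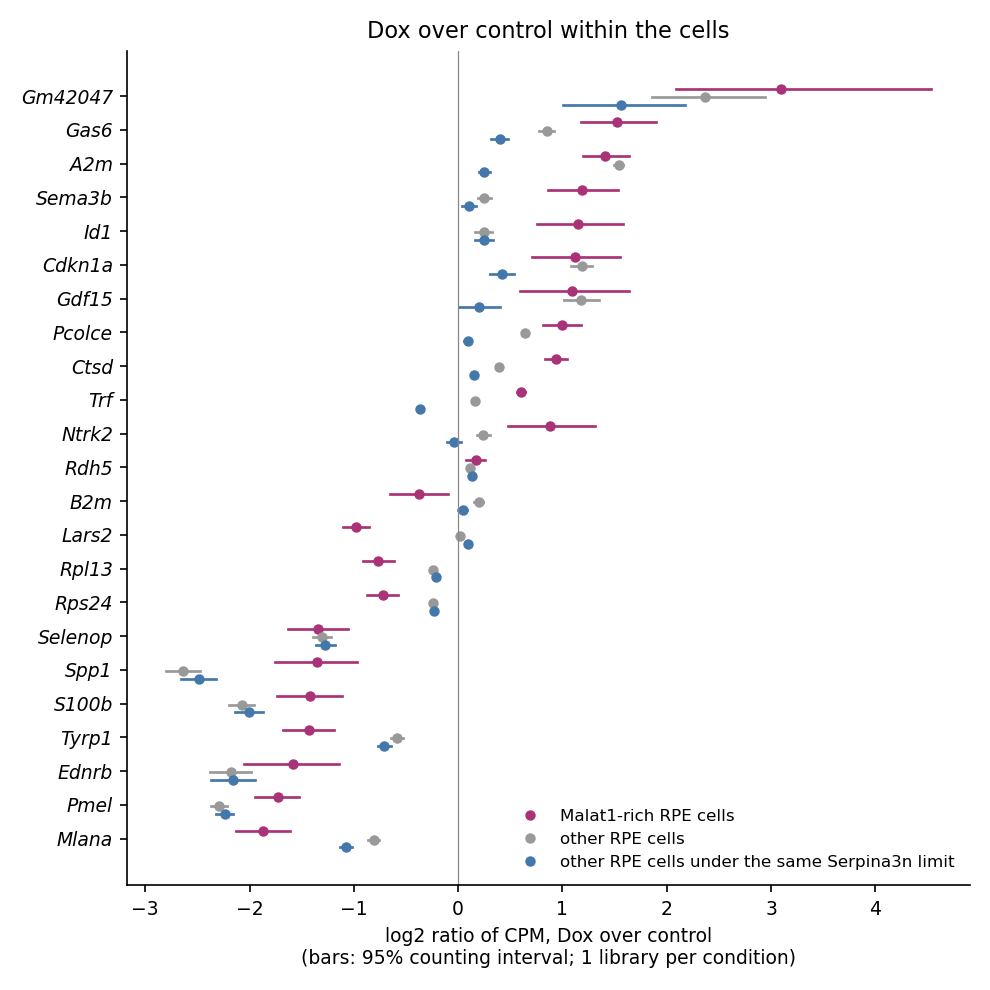
Log2 ratio of CPM, Dox over control (x axis), for named genes in Malat1-rich RPE cells and in the remaining RPE cells, and in the remaining RPE cells under the same Serpina3n limit, with 95% counting intervals as bars (1 library per condition). A2m in Malat1-rich cells (1.41) lies near the remaining cells (1.54) but right of those under the limit (0.25), Gas6, Sema3b and Trf lie right of both, and Pmel, S100b and Mlana lie left of 0 in all 3.

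Best1, Col4a3, Lars2, Lrat, Mdm2, Mitf, Otx2, Pnisr, Rlbp1, Tyr, AY036118 and Bst2 fell outside the rule for named genes and were chosen after their values had been seen.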

How the data were processed

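The deposited files were 1 matrix of UMI counts per condition, which the authors made with Cell Ranger 4.0.0 on mm10 from 5′ single-cell libraries. Whether introns were counted is not given in the sources used here. Cells with over 500 UMIs, 200 to 6000 genes and under 20% mitochondrial UMIs were kept, 20189 control and 15438 Dox. Doublets were limited only by the gene maximum. UMIs were summed over each group, scaled to CPM and compared as log2 ratios with 0.5 counts added, for genes with at least 50 UMIs over both groups and 50 CPM in either. A gene was called past 2-fold. Exact Clopper-Pearson, Poisson and conditional binomial 95% intervals cover counting error only, and with 1 library per condition no test was made. Lymphocyte droplets held at least 3 UMIs of lymphocyte markers.

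Named genes were Malat1, Gm26917, Kcnq1ot1, Neat1, Rpe65 and Serpina3n, the 12 genes with the largest higher and the 12 with the largest lower ratios in members over remaining RPE cells (same direction in both libraries) and in Dox over control members (by the interval bound nearest 0), up to 4 abundant genes per list, and genes the study names. The members and lists were chosen with earlier results of these data known. Positions are from GENCODE M21. Python 3.11.15, numpy 2.4.6, scipy 1.17.1, pandas 2.3.3 and matplotlib 3.10.9 were used, and the calculations were tested on simulated data.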

Additional observations from a re-analysis of the deposited data

Results flagged for a closer look

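In the Dox library 15 of 1588 RPE cells passed both the Malat1 and the Serpina3n limit (0.945%, 95% Clopper-Pearson interval 0.530 to 1.55) and so entered only the comparison without the Serpina3n limit, while the control library held 0 of 1500, which allows a share of up to 0.246%. Counting these cells, 13.1% of Dox RPE cells were Malat1-rich. The cells stood out because their signal lay in data outside the comparisons.

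Plvap, Tagln and Rgs5, genes of vessel cells, stood out because their counting intervals lay above 0 in Malat1-rich cells and below 0 in the remaining RPE cells. The log2 ratio of Dox over control in Malat1-rich cells exceeded that in the remaining cells by 4.22 for Plvap, by 2.53 for Tagln and by 1.66 for Rgs5, and this difference was not tested. Plvap stood at 8.04 CPM in control members and at 104 CPM in Dox members, with 73.3% of the Dox UMIs in 1 cell, and at 21.3 and 13.7 CPM in the remaining cells. Tagln stood at 36.2 and 97.0 CPM in members, with 34.3% of the Dox UMIs in 1 cell, and Rgs5 at 99.2 and 150 CPM. For Rgs5 1 cell held 40.5% of the control UMIs and 1 cell held 24.6% of the Dox UMIs. Its log2 ratio in members went from 0.59 to 0.93 without these cells. Lymphocyte droplets held 124 and 197 CPM of Tagln and 278 and 213 CPM of Rgs5, above the members in each library.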

How the results depend on the processing

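No paired analysis was possible because each condition was 1 pooled library. The same count left no replicate to leave out, and shallow members limit genes at few UMIs. The share of RPE cells that were Malat1-rich, 10.2% in the control and 12.2% in the Dox library, was 18.1% and 17.8% at a limit of 30000 CPM. It was 6.73% and 8.82% at 100000 CPM, 8.26% and 10.2% under a mitochondrial share of 0.10, and 4.41% and 6.85% among cells of at least 5000 UMIs. With at least 3 Rpe65 UMIs it was 14.5% in the control (347 of 2390), beside 344 of 2828 in the Dox library. The order of the libraries thus turned at 30000 CPM and with 3 Rpe65 UMIs. For members over the remaining RPE cells, 823 genes were higher and 164 lower in the control and 375 lower in the Dox library at 30000 CPM, 840 were lower in the control at 100000 CPM, 1910 were higher and 345 lower in the control with Malat1 and mitochondrial genes left out of the total, and with the all-gene median set to 0, 856 were lower in the control, and 930 higher and 1062 lower in the Dox library. Against cells of at most 8000 UMIs, a choice made after seeing the data, 635 were higher and 334 lower in the control and 767 higher in the Dox library, and the immediate early median of the Dox library was -0.0743. With the minimum of 50 CPM on both groups pooled, also chosen after seeing the data, 331 were higher in the control and 363 in the Dox library, so that lower genes outnumbered higher ones, since genes that reached it in members alone dropped out.

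For Dox over control in members, 8 genes were higher at 30000 CPM, 43 higher and 27 lower at 100000 CPM, 15 higher with 3 Rpe65 UMIs, 39 higher and 139 lower without the 10% of RPE cells with the highest share of non-RPE markers, 72 higher among cells of at least 5000 UMIs, 43 higher without Malat1 in the total, 44 higher without Malat1 and mitochondrial genes, 38 higher with the mean of the cells' own CPM, 13 higher and 29 lower with each cell thinned to 2000 UMIs, 26 lower at a minimum of 100 UMIs per gene and 27 lower with the pooled minimum. The higher share of these calls, 33.3%, was 61.4% at 100000 CPM, 50.7% at 5000 UMIs and 43.9% without Malat1 in the total, but 19.0% at 30000 CPM, 19.5% with 3 Rpe65 UMIs and 21.9% without the 10% of cells. Of the ratios of single genes named for Dox over control members, 877 of 924 values kept their side of 2-fold, 26 fell under it, 20 passed it and 1 was reversed. Without its top cell, another choice made after seeing the data, Tyrobp in members was at 0.0177. In the remaining RPE cells 5 genes were higher with 2000 CPM of Rpe65, 1 under the same Serpina3n limit, 6 with the cells' own CPM and 6 when thinned, 20 were lower without the 10% of cells, and 26 were lower among cells of at most 8000 UMIs, where Gdf15 was at -0.58. With the pooled minimum 4 were lower. The other causes were not tested. The other 134 of the 178 share and count values lay within the counting interval of the share or within 1.5 times the count.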

Other observations

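Malat1 levels of at least 50000 CPM were also reached by droplets that failed the Rpe65 rule, here called outside the RPE. These were 1036 of 18689 in the control library (5.54%, 95% Clopper-Pearson interval 5.22 to 5.88) and 539 of 13850 in the Dox library (3.89%, 3.58 to 4.23). Shallow RPE droplets can fail the rule too, and with at least 3 Rpe65 UMIs the members numbered 347 and 344. How many of these droplets were RPE cells was not tested. These droplets held a median of 1785 and 1860 UMIs, against 4443 and 4840 in the other droplets outside the RPE. Their nuclear long non-coding RNAs had a median log2 ratio over those other droplets of 3.40 in the control and 3.67 in the Dox library, speckle genes 1.21 and 1.34, and the long genes listed for the RPE 2.30 and 2.53. Mitochondrial messenger RNAs had 1.53 and 1.33, respiratory chain genes -0.80 and -0.74, and cytosolic ribosomal proteins -1.60 and -1.94, beside medians over all genes of 0.03 and 0.09. The 12 RPE markers summed to 11106 and 19237 CPM in them, against 5510 and 9087 CPM in the other droplets. Their median Rpe65 level was 567 and 977 CPM, against 178 and 274 CPM. The groups were formed by their Malat1 level, and these values are a description with no test.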
